A study of Homo sapiens with 60 samples.

Results

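HT29, an established human colorectal adenocarcinoma line, was exposed for 24 h to a hot-water extract of Angelicae Gigantis Radix, the root of Korean angelica, at its highest dose, and its messenger RNA was compared with that of cells given vehicle. The comparison was defined by the sample labels alone and takes 6 of the 60 libraries of the series: 3 labelled as the extract at 500 µg/mL (below, the extract libraries) and 3 labelled as vehicle, for which the labels give 0.1% DMSO and the series text 2% DMSO. All libraries came from the same parental line without any genetic change named in the labels. For context, 3 libraries each of the same extract at 20 and 100 µg/mL and 2 libraries of a Paeoniae Radix (peony root) water extract at 500 µg/mL were used, all at 24 h. The other groups of the series (further water extracts, and the PI3K inhibitors wortmannin and LY294002) entered the fit, where they share the estimate of the spread, and appear below only as ranges.

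Korean angelica root is used in East Asian medicine and is known for pyranocoumarins such as decursin; no compound was measured here. Electrophilic plant compounds commonly act on KEAP1, a sensor protein that otherwise marks the transcription factor NRF2 for degradation. Stabilised NRF2 binds antioxidant response elements in promoters and raises genes for quinone and carbonyl reduction, glutathione synthesis and NADPH supply. The aryl hydrocarbon receptor (AhR) is the other classical sensor of plant compounds, and its best known target is the cytochrome P450 gene CYP1A1.

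The 6 libraries held 23349216 to 29058462 expected counts, against 20431980 to 35477712 over all 60. Levels are given as CPM (counts over the TMM-adjusted library total, as edgeR gives them), and differences as log2 fold changes with their standard error (SE) from edgeR's quasi-likelihood model over all 60 libraries. The words rose and fell, and the word called, are used of genes whose Benjamini-Hochberg adjusted p over the 16767 genes tested was under 0.05. Nothing in the labels states that replicates came from separate cultures. P-values therefore measure only the spread between libraries, pooled over all 60, which may be technical. All 12 listed markers of colon epithelium were tested and summed to 12451 to 13159 CPM at 500 µg/mL and 12477 to 13003 CPM in vehicle. Of the markers of other cell types, COL1A2, CDH5, KDR, CD3E and ALB had no count in any of the 6 libraries, and PTPRC had at most 1. The summed tested markers of leukocytes, which here are nearly all LYZ, ran from 1359 to 1443 CPM at 500 µg/mL and from 1380 to 1444 CPM in vehicle. Those of hepatocytes, mostly SERPINA1, ran from 421 to 449 CPM at 500 µg/mL and from 461 to 513 CPM in vehicle, without overlap. The tested fibroblast markers summed to 2.96 to 3.87 CPM at 500 µg/mL and to 3.46 to 3.85 CPM in vehicle, those of endothelium to 2.23 to 3.04 and 2.35 to 2.61 CPM, and the 1 tested marker of lung epithelium to 0.761 to 1.16 and 1.07 to 1.46 CPM.

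Features of the design bear on every result against vehicle. The labels give a DMSO content for the vehicle libraries and none for the extract libraries. Any difference in DMSO therefore cannot be told apart from the extract. The sample codes of the Angelicae and Paeoniae libraries begin with 4 and those of vehicle with 1, a number whose meaning is not stated, so the extract and the code set cannot be told apart in that comparison. The vehicle mean lay above or below the means of all 18 extract groups for 4046 of the 16767 genes tested (24.1%). The same held for 21 of the 27 genes called against vehicle (77.8%). Among them were NFAT5, ZMIZ1, DDX11, RECQL4 and CDK1, and also AKR1C3, NQO1, ALDH1A1 and TRIM16L. AKR1B10, AKR1C2 and ME1 were not among them. With the inhibitors added, the vehicle mean lay outside all 20 other groups for 2063 genes (12.3%) and 5 of the 27 (18.5%). The called genes were chosen for their difference from these vehicle libraries, so the shares among them are a description. In 21 of the 27 all 3 libraries at 20 µg/mL also lay beyond all 3 vehicle libraries in the same direction, a count that uses the same vehicle libraries and is not independent. Over all genes tested, 2047 had all libraries at 20 µg/mL above all vehicle libraries and 2068 had them all below. The 500 and 20 µg/mL libraries carry the same code number, so their comparison stays within 1 code set. Transcripts encoded in mitochondria took 7.51%, 8.45% and 8.98% of the counts at 500 µg/mL, against 8.61%, 9.90% and 11.4% in vehicle, and 7.83 ± 0.285% (SD, n = 3) at 20 µg/mL. Leaving those genes out kept all 27 calls described next and hardly moved other genes, with AKR1B10 at 0.432 before and 0.434 after. Such a fit only drops those genes, so it cannot show whether the calls go with a wider difference between the libraries. The highest share was in vehicle replicate 3, and without that library 1 gene was called. The part of this difference in the results against vehicle was not tested.

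Against vehicle, 27 genes passed the threshold, 0.161% of the genes tested, of which 20 rose (0.119%) and 7 fell (0.0417%). All changes were small: the called log2 fold changes ranged in size from 0.148 to 0.633 and none reached 2-fold. All 27 are protein-coding, and in each the 3 extract libraries lay on one side of the 3 vehicle libraries. Over all genes tested, 1792 had the extract libraries all higher and 1827 all lower. Such separation goes along with a small p, so it adds no independent support. The genes that rose included aldo-keto reductases and other oxidoreductases (AKR1C3, AKR1C2, AKR1B10, ALDH1A1, NQO1, ME1), with the NRF2-linked TRIM16L, and genes of DNA replication, repair and cell division (RECQL4, DDX11, RPA2, PARP1, CDK1, CDCA5), a grouping made after the calls were seen. The genes that fell included the transcription regulators NFAT5 and ZMIZ1 and the neuromedin U receptor gene NMUR2. The number of calls rested on single libraries. It was 4, 17 and 4 without extract replicates 1, 2 and 3, and 125, 5 and 1 without vehicle replicates 1, 2 and 3. The fit without vehicle replicate 1 kept 26 of the 27 genes, and no called gene changed sign in any of these fits.

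**Figure D1:**
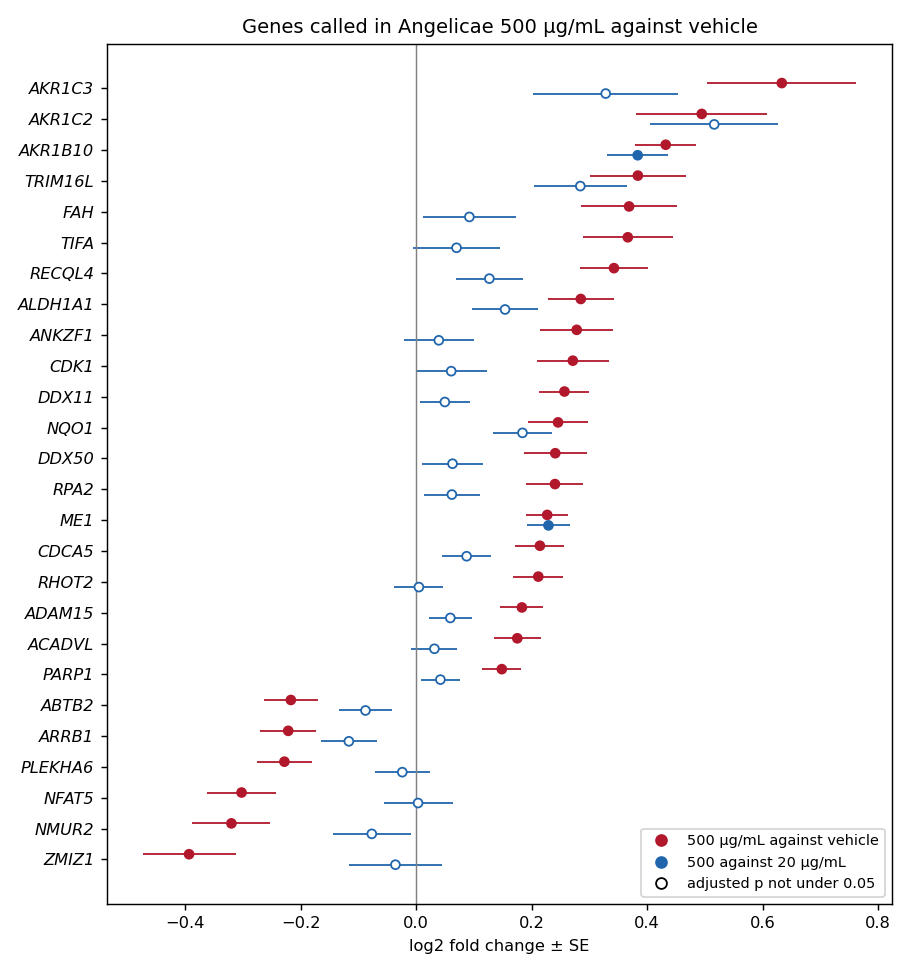
Log2 fold change ± SE (x axis) of 26 of the 27 genes called at 500 µg/mL Angelicae extract against vehicle (red), with the same genes at 500 against 20 µg/mL (blue); filled points have an adjusted p under 0.05. Both sets of points share the 3 libraries at 500 µg/mL that chose the genes. In blue, AKR1B10 and ME1 are filled, and RHOT2, NFAT5, ZMIZ1 and PLEKHA6 are among those within 0.05 of 0.

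AKR1B10 had the smallest adjusted p in the comparison. It encodes an aldo-keto reductase that reduces aliphatic aldehydes and retinal with NADPH (ENSG00000198074, chromosome 7, 134527592 to 134541408, plus strand, GRCh38, as for all positions here). It had 134, 133 and 123 CPM in the extract libraries, against 102, 94.1 and 93.1 CPM in vehicle. Its log2 fold change was 0.43 ± 0.05 (1.35-fold, adjusted p = 3.45e-06, higher in 3 of 3 libraries). With 20 µg/mL the gene had 104, 98.6 and 96.4 CPM and at 100 µg/mL 105, 104 and 99.9 CPM, and both lower doses overlapped vehicle. The 500 against 20 µg/mL difference was 0.38 ± 0.05 (adjusted p = 6.29e-05). With each library left out in turn, the gene kept its call in 6 of 6 fits of both comparisons, at 0.41 to 0.48 against vehicle and 0.36 to 0.42 against 20 µg/mL. Over the other groups of the series its mean ran from 59.5 CPM under LY294002 to 260.3 CPM in Poria at 500 µg/mL.

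ME1 encodes cytosolic malic enzyme, a source of NADPH (ENSG00000065833, chromosome 6, 83210389 to 83431071, minus strand). It had 104, 114 and 107 CPM in the extract libraries, against 95.6, 93.9 and 88.7 CPM in vehicle, without overlap. The change was 0.23 ± 0.04 against vehicle (1.17-fold, adjusted p = 0.00146) and 0.23 ± 0.04 against 20 µg/mL (adjusted p = 0.000681). The lower doses lay among the vehicle libraries, with 93.3, 91.7 and 92.9 CPM at 20 µg/mL and 93.3, 95 and 94.8 CPM at 100 µg/mL. The call against vehicle was lost without vehicle replicate 3, and the call against 20 µg/mL without extract replicate 2, where the values were the lowest of the leave-one-out ranges of 0.19 to 0.26 and 0.19 to 0.26. Both calls were lost with only the 2 groups compared. With vehicle, Angelicae and Paeoniae libraries only, ME1 lost the call against 20 µg/mL.

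NQO1 encodes a quinone reductase that is the standard reporter of NRF2 activity (ENSG00000181019, chromosome 16, 69706996 to 69726951, minus strand). It had 576, 559 and 536 CPM in the extract libraries, against 503, 474 and 433 CPM in vehicle, and rose by 0.25 ± 0.05 (1.19-fold, adjusted p = 0.0245). All 3 extract libraries exceeded all 3 vehicle libraries. The level at 20 µg/mL was 513, 480.5 and 477 CPM and at 100 µg/mL 499, 507 and 479 CPM, both overlapping vehicle. The difference of 500 from 20 µg/mL was 0.18 ± 0.05, which did not pass over all genes (adjusted p = 0.968). The call against vehicle held in 1 of 6 fits with a library left out, the one without vehicle replicate 1, with values of 0.19 to 0.30.

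The promoters of ME1 and NQO1 are shown, from the 4 called members of the NRF2 list with an entry in the promoter table. ME1 is the only 1 of the 4 with a match. The promoters shown differ in whether the core of the element NRF2 is known to bind lies within the bases printed here. Each line gives the 250 bases before the RefSeq transcription start (GRCh38.p14, both genes on the minus strand), at chr6:83431052-83431301 for ME1 and chr16:69726561-69726810 for NQO1. Capitals mark a match to the antioxidant response element core TGACNNNGC on either strand, which in ME1 starts 137 bases before the transcription start.
ME1: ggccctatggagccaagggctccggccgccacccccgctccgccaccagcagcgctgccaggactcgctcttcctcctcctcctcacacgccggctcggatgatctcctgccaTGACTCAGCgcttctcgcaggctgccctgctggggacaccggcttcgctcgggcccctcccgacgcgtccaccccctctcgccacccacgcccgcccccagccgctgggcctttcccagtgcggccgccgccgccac
NQO1: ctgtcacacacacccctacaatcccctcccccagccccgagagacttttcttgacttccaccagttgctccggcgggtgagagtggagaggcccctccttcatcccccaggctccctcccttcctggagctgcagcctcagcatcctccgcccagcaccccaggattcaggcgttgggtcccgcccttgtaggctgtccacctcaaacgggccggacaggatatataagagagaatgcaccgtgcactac
In windows of 250 bases before to 50 after the start, this core occurred in 4687 of 35116 RefSeq promoters (13.3%). Of the 27 called genes 18 had a promoter in the table, and 4 of them had a match in at least 1 window: ACADVL, FAH, ME1 and TIFA. Among the called NRF2 list genes with an entry (AKR1C2, AKR1C3, ME1, NQO1), only ME1 had a match; it had 2, the second starting after the transcription start and so outside the printed bases. A missing match says only that these letters are not in this window.

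The aldo-keto reductases AKR1C3 and AKR1C2 act on steroids, prostaglandins and carbonyls. They lie side by side (AKR1C3 at chromosome 10, 5035354 to 5107686, plus strand, and AKR1C2 at chromosome 10, 4987400 to 5018031, minus strand). Their sequences and that of AKR1C1 are closely related, so the split of reads among them by RSEM is uncertain. AKR1C3 had 66.4, 54.2 and 56.4 CPM in the extract libraries, against 42.8, 37.3 and 34.1 CPM in vehicle. Its change of 0.63 ± 0.13 (1.55-fold, adjusted p = 0.0191) had the largest size among the called genes. Against 20 µg/mL, where it had 52.6, 48 and 40.5 CPM, the difference was 0.33 ± 0.13 (adjusted p = 1). AKR1C2 had 18.9, 15.1 and 16.4 CPM in the extract libraries, against 12, 11.5 and 12.2 CPM in vehicle, a change of 0.49 ± 0.11 (1.41-fold, adjusted p = 0.0467). The lower doses gave 12.4, 11.8 and 11 CPM at 20 µg/mL and 11.3, 11.9 and 9.99 CPM at 100 µg/mL, inside or under the vehicle range for 5 of these 6 libraries. Its difference of 500 from 20 µg/mL was 0.52 ± 0.11 (adjusted p = 0.0904). AKR1C1 had 19.4, 19.5 and 18.7 CPM in the extract libraries, against 16.6, 15.7 and 16.6 CPM in vehicle, and did not pass at 0.24 ± 0.10 (adjusted p = 0.237). AKR1C3 and AKR1C2 each kept the call in 2 of 6 leave-one-out fits, those without extract replicate 2 and without vehicle replicate 1, at 0.54 to 0.72 and 0.40 to 0.56.

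TRIM16L, a partial copy of TRIM16 that is listed with NRF2 targets, had 12.1, 11.9 and 12.7 CPM in the extract libraries, against 9.13, 9.41 and 9.64 CPM in vehicle. It rose by 0.38 ± 0.08 (1.3-fold, adjusted p = 0.0295), a call that held only without vehicle replicate 1 among the 6 leave-one-out fits (0.36 to 0.40). Its parent gene TRIM16 had 31, 28.1 and 30.3 CPM at 500 µg/mL and 27.5, 24.5 and 26.1 CPM in vehicle and did not pass (0.20 ± 0.07, adjusted p = 0.174). Reads of this pair cannot be fully separated.

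**Figure D2:**
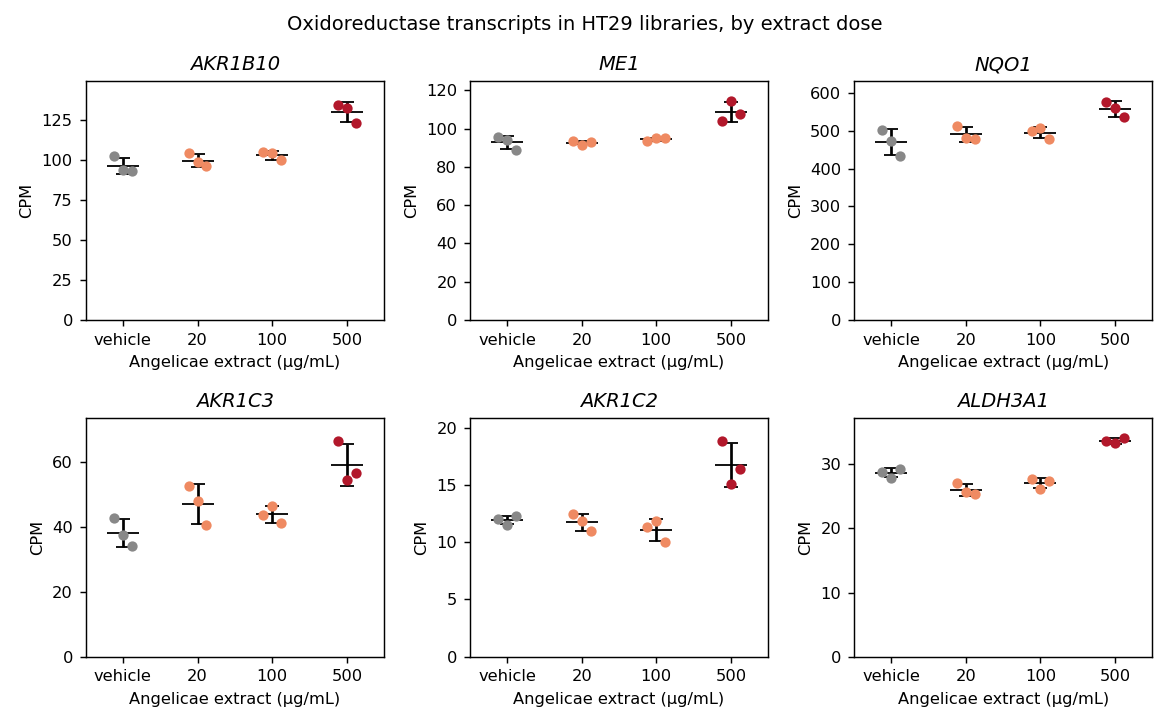
CPM per library (y axis, from 0) of 6 oxidoreductase genes in vehicle (grey) and at 20, 100 (orange) and 500 µg/mL (red) of the Angelicae extract, with mean and SD as black bars (n = 3 each). In each of the 6 genes all 3 libraries at 500 µg/mL exceed all 9 others. The genes were picked after calls that use the same libraries at 500 µg/mL, so this adds no independent support. Over all genes tested, 1792 had these libraries all above vehicle and 741 had them all above 20 µg/mL. In the main fit ALDH3A1 was called against 20 µg/mL and not against vehicle.

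As a list, 6 of the 28 NRF2 genes rose against vehicle and none fell, while 0.119% of all genes tested rose. The median log2 fold change over the 28 was 0.20, against 0.001 over all genes tested. Positive values were found in 26 of 28, and 17 had an unadjusted p under 0.05 in the upward direction, a class that holds 8.38% of all genes, against 1 downward, where it is 7.62%. Against 20 µg/mL, 28 of 28 had a positive value, the median was 0.18, 15 had an unadjusted p under 0.05 upward and none downward (1.56% and 1.42% of all genes), and 2 were called. The 2 comparisons share the libraries at 500 µg/mL, so they are not independent. Members that did not pass against vehicle include GCLM, the regulatory subunit of the first enzyme of glutathione synthesis, with 79.5, 79.2 and 74.1 CPM at 500 µg/mL and 62.3, 66.8 and 59.9 CPM in vehicle (0.30 ± 0.07, adjusted p = 0.0591). PIR, an iron-binding nuclear protein, had 15.5, 15.5 and 15.6 CPM at 500 µg/mL and 12.5, 13.2 and 11.3 CPM in vehicle (0.33 ± 0.08, adjusted p = 0.0566). Neither gene's extract and vehicle libraries overlapped. HMOX1, which encodes the heme-degrading enzyme heme oxygenase 1, had 15.1, 12.7 and 12.2 CPM at 500 µg/mL and 11.3, 11.9 and 10.4 CPM in vehicle (0.25 ± 0.11, adjusted p = 0.26). SLC7A11, the cystine transporter gene, had 161, 157 and 143 CPM and 151, 151 and 138 CPM in the same order, which overlapped (0.07 ± 0.09, adjusted p = 0.741). The transcript of NRF2 itself (NFE2L2) stood at 130.2, 138 and 125 CPM at 500 µg/mL and 150.4, 145 and 146 CPM in vehicle, with all 3 extract libraries below, and did not pass (-0.17 ± 0.06, adjusted p = 0.142).

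**Figure D3:**
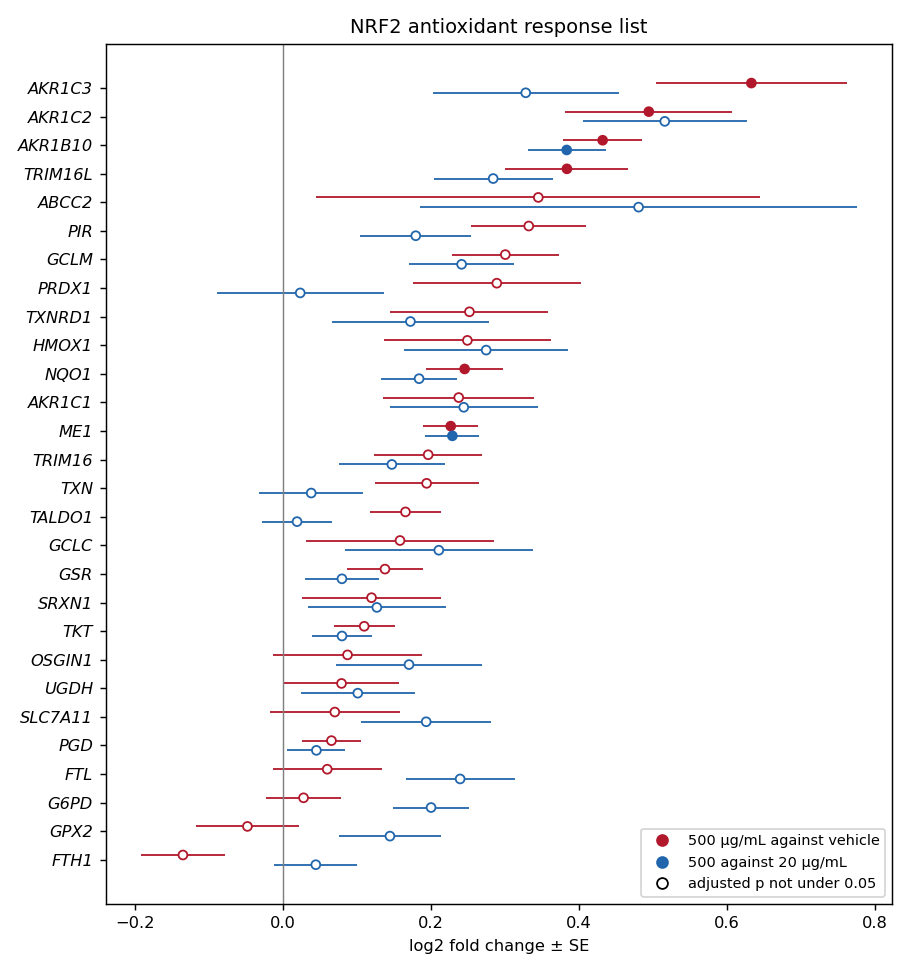
Log2 fold change ± SE (x axis) of the 28 NRF2 list genes at 500 µg/mL Angelicae extract against vehicle (red) and against 20 µg/mL (blue); filled points have an adjusted p under 0.05. In blue 28 of 28 points lie to the right of 0, in red 26 of 28, with GPX2 and FTH1 to the left.

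No gene of the AhR and xenobiotic list was called against vehicle in the main fit, 24 of its 31 genes being tested, and its median was -0.10. Some alternative fits called members of this list, among them ALDH3A1, UGT1A6 and UGT1A10 upward and CYP1A1, CYP1B1 and CYP2S1 downward. Unadjusted p-values under 0.05 were found upward for 4 and downward for 6 of the 24, against 8.38% upward and 7.62% downward over all genes tested. CYP1A1 had 0.55, 0.841 and 1.3 CPM at 500 µg/mL and 4.87, 0.822 and 0.619 CPM in vehicle, where 1 library stood far above the other two, and its fold change of -1.23 ± 0.39 did not pass (adjusted p = 0.126). Without that library, vehicle replicate 1, the value was 0.31. CYP1B1, a second AhR target, showed the same library high, with 51.4, 55 and 51.9 CPM at 500 µg/mL and 90.8, 56.9 and 52.5 CPM in vehicle (-0.34 ± 0.12, adjusted p = 0.156, and -0.05 without that library). The receptor gene AHR (113, 122 and 117 CPM against 124, 144 and 129 CPM in vehicle) and its repressor AHRR (7.22, 6.45 and 6.08 CPM against 7, 6.29 and 6.54 CPM in vehicle) did not pass either. The remaining tested P450 genes, CYP2S1, CYP2W1, CYP2B6, CYP3A5 and CYP3A7, had log2 fold changes from -0.39 to -0.11, and the AhR partner ARNT and the target TIPARP had -0.10 and -0.09; none passed. The P450 reductase gene POR was at -0.11, and the sulfotransferase genes SULT1A1 and SULT2B1 were at -0.07 and -0.14, also without a call.

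Glucuronosyltransferase and exporter genes were not called in the main fit either. UGT1A6, which encodes a glucuronosyltransferase for phenols, had 59.3, 59.6 and 57.3 CPM at 500 µg/mL and 48.5, 45.9 and 50.3 CPM in vehicle (0.28 ± 0.08, adjusted p = 0.0725). UGT1A10 had 398, 407 and 401 CPM and 382, 352 and 363 CPM in the same order (0.14 ± 0.04, adjusted p = 0.0751). The UGT1A genes share their last exons, so their counts are not fully separable. UGT1A1 and UGT2B15 were at 0.07 and -0.21. The exporter genes ABCG2, ABCB1, ABCC2 and ABCC3 had 0.16 ± 0.06, 0.43 ± 0.27, 0.35 ± 0.30 and 0.07 ± 0.06, ABCB1 at under 1 CPM in all 6 libraries.

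ALDH3A1, an aldehyde dehydrogenase gene that responds to AhR and NRF2, is the member of this list that was called at 500 against 20 µg/mL (ENSG00000108602, chromosome 17, 19737984 to 19748943, minus strand). It had 33.6, 33.3 and 34.1 CPM at 500 µg/mL and 28.9, 27.9 and 29.3 CPM in vehicle, without overlap, but its difference of 0.23 ± 0.06 did not pass (adjusted p = 0.0638). That difference passed in edgeR with only genes of at least 5 CPM on average (adjusted p = 0.0388) and with a replicate block (adjusted p = 0.0261). At 20 µg/mL it had 27, 25.7 and 25.3 CPM and at 100 µg/mL 27.7, 26.2 and 27.4 CPM, all below the lowest vehicle library. The 500 against 20 µg/mL difference was 0.37 ± 0.06 (adjusted p = 0.000314) and stayed called with any of the 6 libraries left out (0.35 to 0.40). That call was lost with only the 2 groups compared.

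Other metabolic genes also rose against vehicle. ALDH1A1, which makes retinoic acid from retinal, had 988, 957 and 945 CPM in the extract libraries, against 845, 805 and 723 CPM in vehicle (0.28 ± 0.06, adjusted p = 0.0191). FAH, the last enzyme of tyrosine breakdown, had 22.1, 19.1 and 22 CPM in the extract libraries, against 17.6, 16.1 and 15.3 CPM in vehicle (0.37 ± 0.08, adjusted p = 0.0455). ACADVL, the first enzyme of mitochondrial oxidation of very long fatty acids, had 162, 154 and 163 CPM in the extract libraries, against 141, 146 and 137 CPM in vehicle (0.17 ± 0.04, adjusted p = 0.049). The 500 against 20 µg/mL interval was 0.04 to 0.27 for ALDH1A1, -0.07 to 0.25 for FAH and -0.05 to 0.11 for ACADVL (95%, unadjusted), none of them called. Among the leave-one-out fits, ALDH1A1 and FAH kept the call against vehicle without extract replicate 2 and without vehicle replicate 1, and ACADVL only without extract replicate 2. ACADVL was the only called gene among 13 tested PPAR target and fatty acid oxidation genes, whose median was 0.10.

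A group of 6 called genes serves DNA maintenance or division. RECQL4, a DNA helicase gene, had 63.4, 56.2 and 60.8 CPM in the extract libraries, against 49, 47.9 and 45.5 CPM in vehicle (0.34 ± 0.06, 1.27-fold, adjusted p = 0.00231). DDX11, a helicase of sister chromatid cohesion, had 100.0, 105 and 97.2 CPM in the extract libraries, against 86, 83.2 and 83.3 CPM in vehicle (0.26 ± 0.04, adjusted p = 0.00203); it shares reads with its near copy DDX12P. In both genes the extract and vehicle libraries were apart. CDK1, the kinase that drives entry into mitosis, had 89.2, 93.1 and 89.3 CPM in the extract libraries, against 78.4, 77.6 and 69 CPM in vehicle (0.27 ± 0.06, adjusted p = 0.0495). RPA2, CDCA5 and PARP1, outside the rule for named genes and chosen after their values were seen, encode a single-strand DNA binding subunit, the cohesin regulator sororin and a DNA break sensor. They rose by 0.24 ± 0.05, 0.21 ± 0.04 and 0.15 ± 0.03 (adjusted p = 0.0191, 0.0191 and 0.0462). Against 20 µg/mL none of the 6 was called, and the differences were 0.13 ± 0.06 for RECQL4, 0.05 ± 0.04 for DDX11, 0.06 ± 0.06 for CDK1, 0.06 ± 0.05 for RPA2, 0.09 ± 0.04 for CDCA5 and 0.04 ± 0.03 for PARP1. DDX11 lost its call against vehicle only without vehicle replicate 3 (0.23 to 0.28), RECQL4 without that library or extract replicate 1 (0.30 to 0.39), and CDK1, RPA2 and PARP1 in every fit but the one without vehicle replicate 1. CDCA5 kept its call only without extract replicate 2 or vehicle replicate 1.

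No other member of the replication and mitosis lists passed. Of 28 DNA replication and G1/S genes none was called, 26 were positive, 16 had an unadjusted p under 0.05 upward (8.38% of all genes) and none downward, and the median was 0.10. Among them PCNA, the sliding clamp of DNA polymerases, had 217, 221 and 216 CPM at 500 µg/mL and 206, 195 and 172 CPM in vehicle (0.19 ± 0.06, adjusted p = 0.143). E2F1, a transcription factor of S phase entry, had 64.2, 60.3 and 61.8 CPM and 51.1, 52 and 48.2 CPM in the same order (0.30 ± 0.09, adjusted p = 0.0916). For both, the extract libraries were all higher. Of 28 mitosis and G2/M genes CDK1 was called, 10 had an unadjusted p under 0.05 upward and none downward, against the same 8.38% and 7.62% of all genes, and the median was 0.02. PLK1, a mitotic kinase, had 169.5, 163 and 166 CPM at 500 µg/mL and 169, 167 and 194 CPM in vehicle, which overlapped. Against 20 µg/mL the medians of these lists were 0.05 for replication and 0.05 for mitosis, with 3 and 1 members at an unadjusted p under 0.05, all upward (1.56% of all genes).

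Of the 7 genes that fell, ZMIZ1 and NFAT5 encode transcription regulators. ZMIZ1, a co-activator gene (ENSG00000108175, chromosome 10, 79069035 to 79316528, plus strand), had 119, 129 and 132 CPM in the extract libraries, against 153, 171 and 177 CPM in vehicle (-0.39 ± 0.08, adjusted p = 0.0191). NFAT5, the regulator of the response to osmotic stress (ENSG00000102908, chromosome 16, 69565094 to 69704666, plus strand), had 126, 134 and 123 CPM in the extract libraries, against 150.3, 160.3 and 162 CPM in vehicle (-0.30 ± 0.06, adjusted p = 0.0191). The extract libraries of both lay wholly below vehicle. At 20 µg/mL ZMIZ1 had 124, 133 and 133 CPM (-0.36 ± 0.08 against vehicle, adjusted p = 0.0377) and NFAT5 had 132, 122 and 129 CPM (-0.31 ± 0.06, adjusted p = 0.0366), in a comparison that shares the vehicle libraries. The 500 against 20 µg/mL interval was -0.20 to 0.13 for ZMIZ1 and -0.12 to 0.12 for NFAT5.

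NMUR2, which encodes a receptor of the peptide neuromedin U, also fell. It had 55.4, 53.5 and 56.5 CPM in the extract libraries, against 66, 65.9 and 74.7 CPM in vehicle (-0.32 ± 0.07, adjusted p = 0.0245). Its extract libraries lay wholly below vehicle and overlapped the 20 µg/mL libraries, which had 60.8, 55.6 and 58.1 CPM. PLEKHA6, ARRB1 (beta-arrestin 1, which uncouples receptors from G proteins) and ABTB2 fell by 0.23 ± 0.05, 0.22 ± 0.05 and 0.22 ± 0.05 on the log2 scale (adjusted p = 0.0201, 0.0302 and 0.0247). None of the 7 was called against 20 µg/mL, and each lost its call against vehicle in 4 or 5 of the 6 leave-one-out fits, always without vehicle replicates 2 and 3 and without extract replicate 3.

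**Figure D4:**
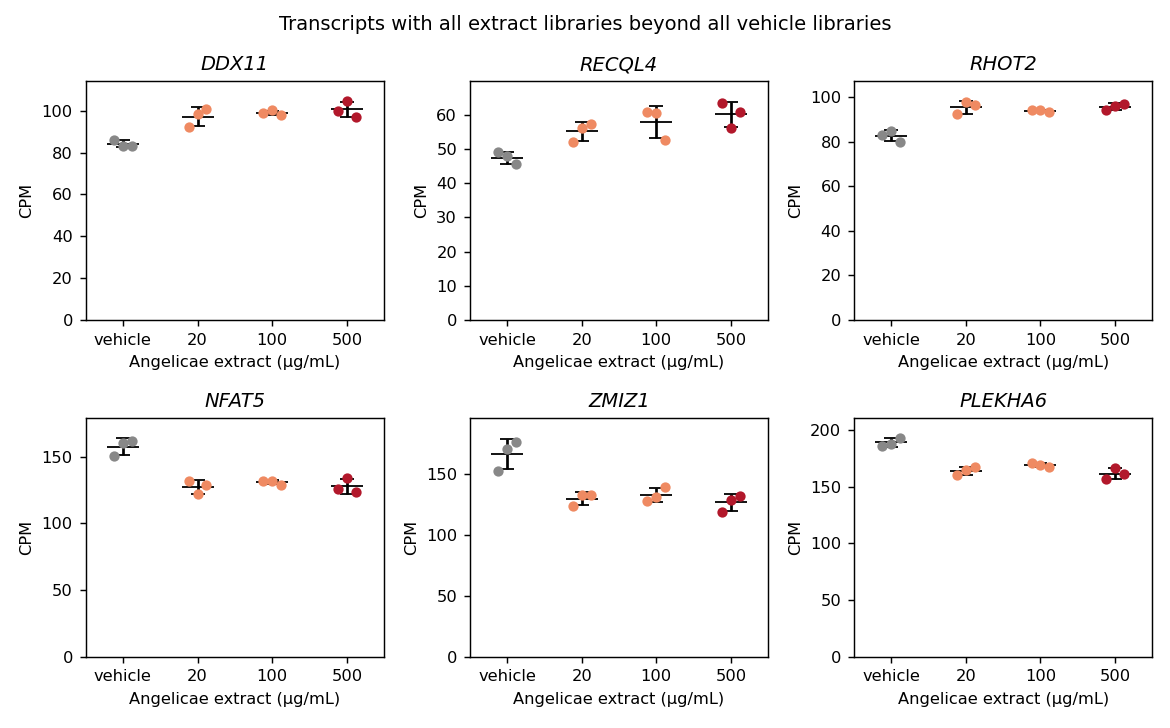
CPM per library (y axis, from 0) of DDX11, RECQL4, RHOT2, NFAT5, ZMIZ1 and PLEKHA6 in vehicle (grey) and at 20, 100 (orange) and 500 µg/mL (red) of the Angelicae extract, with mean and SD as black bars (n = 3 each). In each gene all 9 extract libraries lie on one side of the 3 vehicle libraries. The genes shown were picked from those called against these same vehicle libraries, so the separation is a description. Over all genes tested, 2047 had all libraries at 20 µg/mL above vehicle and 2068 had them all below.

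The remaining called genes have varied roles. TIFA, an adaptor of innate signalling to NF-kB, had 11.7, 13.3 and 12.6 CPM in the extract libraries, against 9.73, 9.99 and 9.37 CPM in vehicle (0.37 ± 0.08, adjusted p = 0.0247). None of the 20 tested genes of the NF-kB and chemokine list was called, and none had an unadjusted p under 0.05. ANKZF1, a release factor of stalled ribosomes, rose by 0.28 ± 0.06 (adjusted p = 0.0455). RHOT2, DDX50 and ADAM15 were likewise outside the rule for named genes and chosen after their values were seen. RHOT2, a GTPase of mitochondrial transport, had 94.2, 95.9 and 96.9 CPM in the extract libraries, against 83.2, 84.8 and 80.0 CPM in vehicle (0.21 ± 0.04, adjusted p = 0.0191), and a 500 against 20 µg/mL difference of 0.00 (interval -0.08 to 0.09). DDX50, an RNA helicase gene, and ADAM15, a membrane metalloprotease gene, rose by 0.24 ± 0.06 and 0.18 ± 0.04 (adjusted p = 0.0467 and 0.0191). TIFA, ANKZF1, RHOT2 and DDX50 were called in 1 of 6 leave-one-out fits, the one without vehicle replicate 1, and ADAM15 in 3.

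Several lists without a called gene had medians that differed between the comparison with vehicle and that with 20 µg/mL. The 13 mitochondrially encoded genes were all negative against vehicle, with a median of -0.32 and 9 unadjusted p-values under 0.05 downward, a class that holds 7.62% of all genes. MT-ND4, a subunit of complex I, had 7228, 8272 and 8312 CPM at 500 µg/mL and 8483, 10833 and 12490 CPM in vehicle, without overlap. Their median at 500 against 20 µg/mL was 0.10, with 9 of 13 positive and no unadjusted p under 0.05. The 29 nuclear genes of the respiratory chain gave 26 positive values and a median of 0.16 against vehicle, and 12 positive values and a median of -0.02 against 20 µg/mL. The 27 proteasome subunits gave 24 positive values and a median of 0.16 against vehicle, with 16 unadjusted p-values under 0.05 upward (8.38% of all genes), and a median of 0.02 against 20 µg/mL with none. PSMC5, an ATPase of the regulatory particle, had 139.8, 122 and 130 CPM at 500 µg/mL and 118, 111 and 97.6 CPM in vehicle (0.26 ± 0.08, adjusted p = 0.101), and 134, 134 and 128 CPM at 20 µg/mL. The 72 cytosolic ribosomal protein genes gave medians of 0.11 against vehicle and -0.04 against 20 µg/mL. In bulk RNA, a change in the number of cells of a state and a change in RNA per cell cannot be told apart.

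Lists with negative medians against vehicle also held no called gene. Goblet and secretory genes (18 tested) had a median of -0.10, with 6 unadjusted p-values under 0.05 downward and 1 upward (7.62% and 8.38% of all genes). REG4, a secreted lectin, had 27.4, 31.4 and 29.1 CPM at 500 µg/mL and 33.3, 35.5 and 38.5 CPM in vehicle (-0.29 ± 0.07, adjusted p = 0.0591). MUC5AC, a gel-forming mucin, had 156, 151 and 149.8 CPM and 168, 187 and 224 CPM in the same order (-0.34 ± 0.11, adjusted p = 0.139). Wnt target and stem cell genes (14 tested) had a median of -0.11, with SOX9 at 158, 154 and 154 CPM at 500 µg/mL and 173, 207 and 188 CPM in vehicle (-0.28 ± 0.07, adjusted p = 0.0591). FOXO targets, which PI3K inhibitors are known to raise, had a median of -0.04 over 24 genes. Of these, 5 had an unadjusted p under 0.05 downward and none upward (7.62% and 8.38% of all genes). Interferon-stimulated genes had a median of -0.05 over 33. The list medians over p53 targets, ATF4 targets, the unfolded protein response, hypoxia and cholesterol synthesis lay between -0.03 and 0.07.

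**Figure D5:**
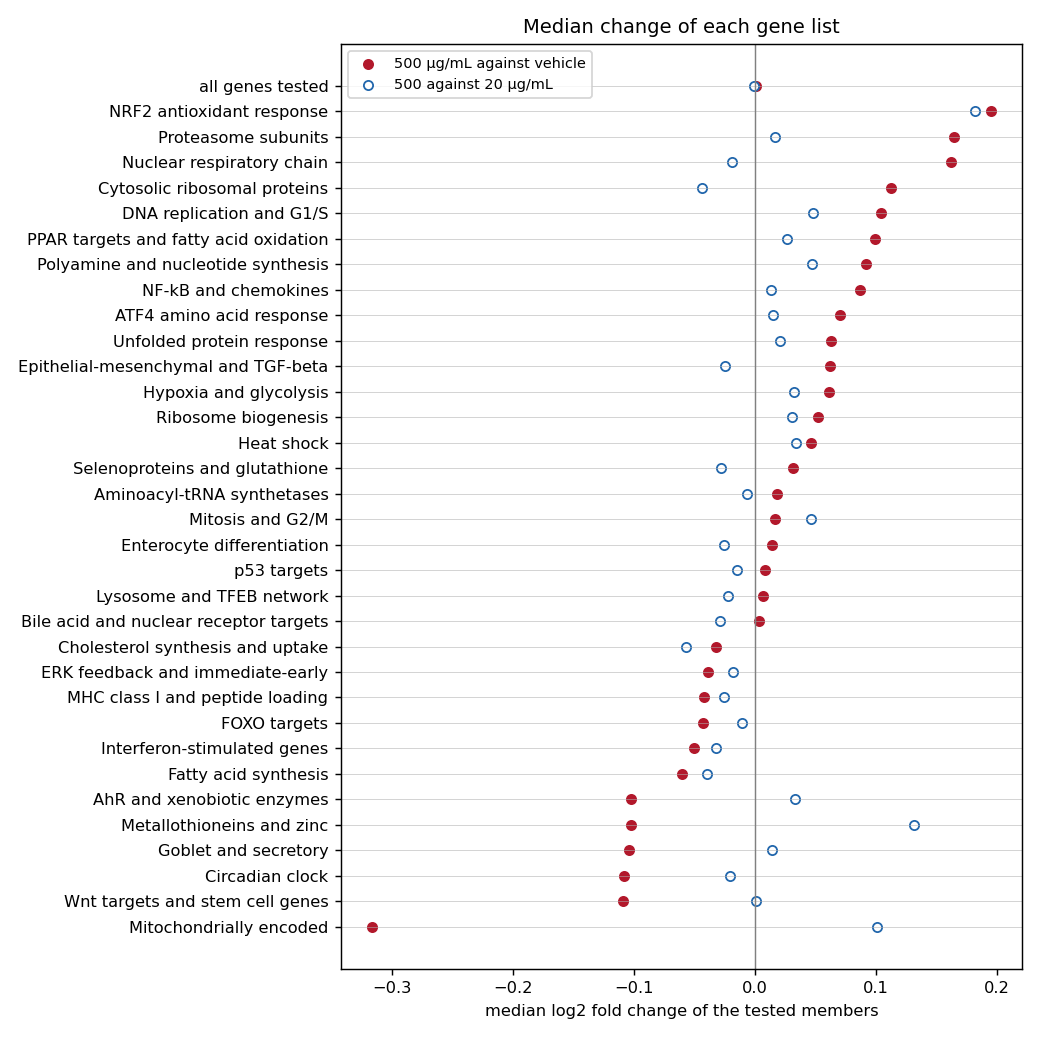
Median log2 fold change (x axis) over the tested members of each of 33 gene lists and over all genes tested, at 500 µg/mL Angelicae extract against vehicle (red) and against 20 µg/mL (open blue circles). The NRF2 list is at 0.20 and 0.18, the proteasome at 0.16 and 0.02, and the mitochondrially encoded genes at -0.32 and 0.10.

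Within the dose series, 3 genes passed at 500 against 20 µg/mL (0.0179% of the genes tested): AKR1B10, ALDH3A1 and ME1, all higher at 500 µg/mL and all described above. With each of the 6 libraries left out in turn, 2 to 4 genes were called. An unadjusted p under 0.05 was found for 499 genes. For 17 of the 27 genes called against vehicle, the interval of the 500 against 20 µg/mL difference included 0, which does not show that the doses act alike. At 20 µg/mL against vehicle, libraries lay apart for 2047 genes upward and 2068 downward over all genes tested. In that comparison 29 genes passed (0.173%), 14 higher and 15 lower, with libraries apart in all 29. This count fell to 7 without 20 µg/mL replicate 1 and to 0 without replicate 2 or 3 of either group, and was 141 without vehicle replicate 1. The largest rises among genes of at least 5 CPM were in PMVK, a kinase of the mevalonate pathway (0.63 ± 0.14), MKS1, a ciliary transition zone gene (0.54 ± 0.12), COQ3 of coenzyme Q synthesis (0.54 ± 0.12) and CDK5RAP3 (0.43 ± 0.09). PMVK had 19.8, 20.3 and 18.2 CPM at 20 µg/mL and 13.9, 12.6 and 11.2 CPM in vehicle, and at 500 µg/mL 19.7, 16 and 17.1 CPM, which did not pass against vehicle (0.49 ± 0.14, adjusted p = 0.0906). The mucin gene MUC5B had 0.415, 0.579 and 0.427 CPM at 20 µg/mL and 0.982, 1.36 and 1.28 CPM in vehicle (-1.34 ± 0.27, adjusted p = 0.0366); at 500 µg/mL it had 0.756, 0.761 and 0.869 CPM and did not pass (-0.60 ± 0.25, adjusted p = 0.229). REG4 fell at 20 µg/mL, to 27.9, 28.6 and 29.9 CPM (-0.31 ± 0.07, adjusted p = 0.0366).

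The Angelicae and Paeoniae extracts at the same 500 µg/mL, which share the leading number of their codes, differed in 3 genes (0.0179%), all lower with Angelicae. ASS1, the citrulline-using enzyme of arginine synthesis, had 12.3, 12.3 and 12.3 CPM with Angelicae and 16.5 and 15.5 CPM with Paeoniae (-0.38 ± 0.07, adjusted p = 0.00905). ALDH3A1 had 33.6, 33.3 and 34.1 CPM with Angelicae and 43.5 and 41.2 CPM with Paeoniae (-0.33 ± 0.06, adjusted p = 0.0139). SLC39A10, a zinc importer gene, had 35.1, 37.1 and 40.1 CPM with Angelicae and 45.5 and 47.1 CPM with Paeoniae (-0.31 ± 0.06, adjusted p = 0.042). The calls rested on single libraries: 0 genes were called without Angelicae replicate 1, without Angelicae replicate 2 or without Paeoniae replicate 1, 2 without Paeoniae replicate 2 and 5 without Angelicae replicate 3. For the reductases that rose against vehicle, the difference of Angelicae from Paeoniae had intervals of -0.23 to 0.01 for AKR1B10, where Paeoniae had 138 and 143 CPM, -0.14 to 0.03 for ME1, -0.27 to -0.04 for NQO1, -0.44 to 0.12 for AKR1C3 and -0.59 to -0.11 for AKR1C2 (95%, unadjusted). None of these 5 was called, and the NQO1 and AKR1C2 intervals lay below 0. Of the 28 NRF2 list genes, 24 had a negative value for Angelicae against Paeoniae and 4 a positive value, with a median of -0.08. None was called. An unadjusted p under 0.05 was found downward for 6 of them and upward for 0, against 293 and 306 of the 16767 genes tested.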

How the data were processed

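Messenger RNA of HT29 cells was read as 100 bp pairs from directional libraries made from RNA with an integrity number over 7, per the labels' protocols. The deposited table holds expected counts, as RSEM estimates them, for Ensembl genes without normalisation; FastQC 0.11.9, Trim Galore 0.6.5, STAR 2.7.3a, RSEM 1.3.3 and hg38 are named in the submitters' processing notes, while the release of the annotation and the strandedness used in counting are not stated in the sources used here. Of 273 columns, 213 were not used here, and 24.2% of the values above 0 in the 60 used were not whole. Expected counts were rounded. The 16767 of 60675 genes that passed edgeR 4.0.16's filterByExpr with a minimum count of 10 and a minimum total of 15 were scaled by TMM and fitted in R 4.3.3 with 1 quasi-likelihood model of 21 group means (39 residual degrees of freedom, common biological coefficient of variation 0.057). P-values were adjusted by Benjamini-Hochberg within each of 4 comparisons. SE is the size of the log2 fold change divided by the root of the F statistic, and intervals are 95% and unadjusted. No pair of replicates within a group agreed within counting noise. The squared difference relative to counting noise, averaged over genes, was 5.06, 7.3 and 16.4 for the vehicle pairs. It was 3.67 to 9.11 for pairs at 500 µg/mL and 3.53 to 5.76 at 20 µg/mL. The pooled estimate of the spread does not follow such differences between groups. The script was tested on simulated counts.

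The 2 or 3 libraries a group limit the precision, as do low counts. Symbols came from the supplied name table or GENCODE 29, for 16647 of the 16767 genes; positions are GENCODE 29 on GRCh38, and promoters RefSeq GRCh38.p14. Named genes were the 12 largest rises and falls among called genes with a symbol, a mean of at least 5 CPM and no overlap between groups, up to 4 called members of each gene list, all tested members of the AhR and xenobiotic list, and, for the other comparisons, 4 further rises and falls. Of the called genes, 1 that fell is not reported here by name. The genes and lists were chosen with earlier results of these data known. Alternatives tried were RLE and upper-quartile scaling, leaving mitochondrial genes out, other filters, fewer groups, a replicate block, DESeq2 1.42.0 and leaving out each library.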

Additional observations from a re-analysis of the deposited data

Results flagged for a closer look

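The direct test between the Angelicae and Paeoniae extracts at 500 µg/mL picked out 3 genes as differing between the extracts, by edgeR's quasi-likelihood test with Benjamini-Hochberg adjustment. ASS1 had 12.3, 12.3 and 12.3 CPM with Angelicae, against 16.5 and 15.5 CPM with Paeoniae, a log2 difference of -0.385 (adjusted p = 0.00905). The vehicle libraries had 14.6, 14.2 and 14.4 CPM, between the extracts. ALDH3A1 differed by -0.334, although it was higher than vehicle in all libraries of both extracts at this dose. SLC39A10 differed by -0.307, with 35.1, 37.1 and 40.1 CPM for Angelicae and 45.5 and 47.1 CPM for Paeoniae. Its Angelicae libraries overlapped the vehicle libraries, which had 39.6, 37.0 and 40.5 CPM. Each of the 3 genes lost its call in at least 3 of the 5 fits with a library left out. All 3 also lost it with only the 2 groups compared.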

How the results depend on the processing

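At 500 µg/mL against vehicle, the main count of 27 became 882 with no filter on low counts, 97 at a mean of at least 5 CPM, 139 with vehicle, Angelicae and Paeoniae libraries only, 63 with only the 2 groups compared (10 of the 27 kept) and 255 by DESeq2's Wald test. At 500 against 20 µg/mL, the main count of 3 became 88 with no filter, 1 with only the 2 groups and 6 by DESeq2. At 20 µg/mL against vehicle, the main count of 29 became 1141 with no filter, 63 at a mean of at least 5 CPM, 347 with vehicle, Angelicae and Paeoniae only, 388 with only the 2 groups and 443 by DESeq2. Angelicae against Paeoniae at 500 µg/mL, with 3 calls, became 77 with no filter and 1 with vehicle, Angelicae and Paeoniae only. With only the 2 groups compared it was again 3, but 0 of these were among the main 3. The cause of these shifts was not tested, beyond the number of genes tested (34237 with no filter, 10655 at 5 CPM). RLE scaling, upper-quartile scaling and leaving out mitochondrial genes kept every count within 1.5 times. With 1 library left out, counts ranged from 1 to 125, from 2 to 4, from 0 to 141 and from 0 to 5 in the same order of comparisons, with 572 to 2761 genes at an unadjusted p under 0.05 where edgeR called 0.

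Residuals of the same replicate number correlated at 0.0533, -0.022 and 0.0911 between 500 µg/mL and vehicle, where unlike numbers gave -0.106 to 0.0601. Between 500 and 20 µg/mL they correlated at 0.116, 0.021 and 0.0609, and unlike numbers gave -0.0952 to 0.0373. Between 20 µg/mL and vehicle the values were 0.0256, 0.0149 and 0.0844, against -0.0587 to 0.0325. Correlations this small cannot decide whether the numbers pair the samples. With the replicate block, the counts were 219, 5, 234 and 3, in that order of comparisons; 500 µg/mL replicate 1 correlated slightly better with vehicle replicate 2 (0.0601) than with its own number.

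For single genes, 701 alternative fits of called values gave 466 kept calls, 235 lost calls of the same direction and 0 reversals, and uncalled AhR list members were called in 16 fits. AKR1B10 was called in 15 of 15 alternatives of both its comparisons, and DDX11 in 14 of 15 against vehicle. The precision is limited by the number of libraries and, for genes near 1 CPM such as MUC5B and CYP1A1, by low counts.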

Other observations

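Gene groups not described so far held no called gene in either comparison. The 8 tested genes of metallothioneins and zinc handling had a median log2 fold change of -0.10 at 500 µg/mL against vehicle and 0.13 at 500 against 20 µg/mL, with 3 and 6 positive values. Enzymes of polyamine and nucleotide synthesis (16 tested) had medians of 0.09 and 0.05 in the same order. They held 8 and 1 unadjusted p-values under 0.05 upward, classes that hold 8.38% and 1.56% of all genes. CTPS1, which makes CTP, had 115, 110 and 110 CPM at 500 µg/mL and 102, 96.3 and 88.3 CPM in vehicle (log2 fold change 0.22 ± 0.05, adjusted p = 0.0591). Ribosome biogenesis genes (25 tested) had medians of 0.05 and 0.03, with 7 and 1 such values, beside the same 8.38% and 1.56%. The heat shock list (18 tested) had medians of 0.05 and 0.03. Against vehicle it held 5 upward and 1 downward value under 0.05 (8.38% and 7.62% of all genes). Cholesterol synthesis and uptake genes (22 tested) had medians of -0.03 and -0.06, and 2 of 22 were positive against 20 µg/mL. Enterocyte differentiation genes had medians of 0.01 and -0.03 over 17 tested members.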
